A study of Mus musculus with 40 samples.

Results

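Phagocyte depletion in the choroid of mice whose endothelial cells lack Tgfbr2 was examined by comparing 5 Tgfbr2ΔEC mice fed PLX5622 (Tgfbr2ΔEC + PLX, mice 16 to 20) with 5 Tgfbr2ΔEC mice on control food (Tgfbr2ΔEC - PLX, mice 6 to 10). These 10 choroids were chosen by tissue, genotype and diet and are 10 of the 40 libraries of the series, which hold the choroid and the retina of 20 mice. All 20 mice were on a C57BL/6J background, carried floxed Tgfbr2 alleles, received tamoxifen eye drops from the age of 6 to 7 weeks, had 6 laser burns per eye to open Bruch's membrane, and were killed 3 days after the laser. Tgfbr2ΔEC mice also carried Cre-ERT2, a recombinase that tamoxifen switches on, driven by the Cdh5 promoter of endothelial cells, and their littermates without the recombinase are the controls. The PLX5622 diet ran from the first tamoxifen drop to the end of the experiment. The central choroid that held the lesions was sequenced, and the values are the authors' normalized counts, scaled over choroids and retinas together.

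PLX5622 is a small-molecule inhibitor of the kinase CSF1R, the receptor for the growth factors CSF1 and IL-34, on which macrophages and microglia depend for survival. Mononuclear phagocytes of the back of the eye comprise microglia of the retina, resident macrophages along choroidal vessels, and monocytes that enter from the blood and collect at a laser lesion. They clear debris through scavenger, Fc and complement receptors, present antigen on MHC class II and release chemokines, proteases and growth factors.

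The normalized counts of the 10 choroids summed to between 24718469 and 25840277, which by the step that 1 read takes among low values is an estimated 22386899 to 27657559 reads, with between 23225 and 24079 genes above 0. Markers of the labelled tissue were present in both groups. Rpe65, which regenerates the visual chromophore in the pigment epithelium, had 24432 ± 6483 normalized counts (SD, n = 5) without and 30966 ± 5116 (SD, n = 5) with PLX. Tgfbr2, the floxed gene, had 9490, 10294, 11066, 11303 and 8729 normalized counts in the 5 mice without PLX and 11072, 10817, 11999, 11163 and 11049 in the 5 mice with PLX. The groups overlapped (log2 difference 0.15 ± 0.09 (SE), adjusted p = 0.483), and the level includes RNA from cells in which the Cre is not active.

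The groups differed in retinal RNA. A neural retina score, the mean of log2(normalized count + 1) over 10 genes of photoreceptors and inner retinal neurons, was 12.30, 10.94, 11.25, 12.60 and 11.55 in mice 6 to 10 without PLX and 9.87, 8.81, 9.89, 9.84 and 8.51 in mice 16 to 20 with PLX. The groups did not overlap, and the mean was 11.73 ± 0.70 (SD, n = 5) against 9.38 ± 0.67 (SD, n = 5; exact permutation test, two-sided, p = 0.00794, the smallest that 5 mice against 5 allow). Set against the retina of the same mouse, the summed 10 genes in the choroid stood at between 3.16% and 10.6% of their retinal level without PLX and between 0.606% and 1.604% with PLX. By the RNA of genes on the Y chromosome, 2 of the 5 mice without PLX (mice 6 and 9) and 1 of the 5 with PLX (mouse 16) were male. Mice 6 and 9 also had the highest neural retina scores. The score was therefore also entered as a covariate, called the covariate from here on, and list counts that it changes are given both ways. Since the scores of the diet groups did not overlap, the covariate and the diet cannot be fully told apart. A call lost with the covariate can also come from a larger standard error.

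Depletion lowered many more genes than it raised. Of 23619 genes tested with limma, 826 were lower with PLX (3.5%) and 132 were higher (0.559%) at a Benjamini-Hochberg adjusted p at or under 0.05. Among the lowered genes the median log2 difference was -1.604, and 268 had a log2 difference of -2 or below. The raised genes changed less, with a median log2 difference of 0.47, and 24 of them reached a log2 difference of 1. With this score as a covariate, 490 genes were lower (2.07%) and 24 were higher (0.102%), and 467 of the 826 and 14 of the 132 kept their call. The number of raised genes was 49 when mouse 6 was left out. Samples of whole tissue do not tell a smaller number of phagocytes from less of an RNA in each cell.

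The 3 genes that mark these phagocytes fell in every mouse fed PLX. Cx3cr1, the receptor for fractalkine on microglia and monocyte-derived cells, had 1347, 1527, 1996, 1797 and 1351 normalized counts without PLX and 219.8, 175, 129, 129 and 148 with PLX. Its mean with PLX was 9.99% of that without PLX (log2 difference -3.33 ± 0.17 (SE), adjusted p = 2.47e-10). C1qc, a chain of the complement component C1q that macrophages make, had 4796, 3929, 5169, 4074 and 5010 without PLX and 539, 589.7, 534, 336 and 634 with PLX, so that 11.5% was left (log2 difference -3.15 ± 0.21 (SE), adjusted p = 8.99e-09).

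Csf1r, the target of the drug, fell less. It had 6490, 7918, 8160, 8148 and 7577 normalized counts without and 3881, 3594, 3399, 3821 and 4462 with PLX, and 50.02% of its mean was left (log2 difference -1.0 ± 0.10 (SE), adjusted p = 8.18e-07). The lowest mouse without PLX stood above the highest mouse with PLX for all 3 genes. Scaled by the neural genes, the retinal RNA of the same mouse amounted to at most 1.703% of Cx3cr1, 0.668% of C1qc and 1.09% of Csf1r in the choroids without PLX.

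**Figure D1:**
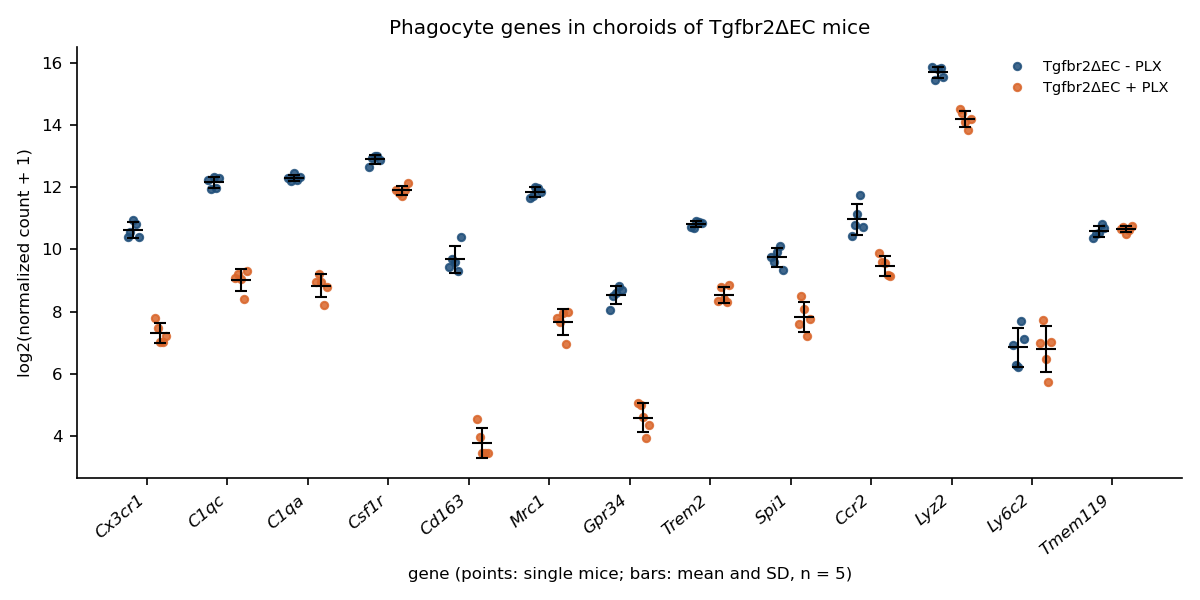
Normalized counts of 13 phagocyte genes in the choroid of each Tgfbr2ΔEC mouse, on the y axis as log2(normalized count + 1), without PLX (blue) and with PLX (orange). Points are single mice, and black bars give the mean and SD of 5 mice. Cd163 and Mrc1 show wide gaps between the groups, Csf1r and Lyz2 narrow ones, and the mice of both groups overlap for Ly6c2 and Tmem119.

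Of 25 core macrophage and microglia markers, all tested, 23 were lower and 0 were higher, with a median log2 difference of -1.91 against -0.01 over all tested genes. With the covariate 23 were lower. The share left differed widely between members. C1qa and C1qb, the other chains of C1q, kept 9.204% and 15.96% of their level, and Adgre1, which encodes the macrophage surface protein F4/80, kept 16.1%. Itgam, the CD11b chain of the complement receptor CR3, kept 23.5%, Cd68 of the lysosomal membrane 32.7%, and Lyz2, the lysozyme of macrophages and granulocytes, 35.9%.

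Lyz2 remained among the most abundant of these transcripts. Its level was 59501, 44927, 57333, 58287 and 47658 normalized counts without PLX and 23318, 21654, 17604, 14708 and 18759 with PLX (log2 difference -1.49 ± 0.20 (SE), adjusted p = 5.84e-05), so the groups did not overlap and no mouse lost the transcript. The 2 markers that did not pass the test were Csf2rb, a receptor chain shared by several cytokines (log2 difference -0.58 ± 0.41 (SE), adjusted p = 0.569), and Mertk, which takes up dead cells in macrophages and photoreceptor outer segments in the pigment epithelium (log2 difference -0.05 ± 0.09 (SE), adjusted p = 0.875).

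The other genes with the lowest p among those lowered are known from leukocytes, macrophages among them. Cd33, an inhibitory lectin of myeloid cells, kept 15.3%, Cd180, a Toll-like receptor relative of B cells and macrophages, 19.1%, the iron exporter Slc40a1 29.7% and the leukocyte actin-bundling protein gene Lcp1 27.6% (adjusted p between 1.82e-09 and 9.91e-09). In GRCm39, Cx3cr1 lies on chromosome 9 (119877749 to 119898945), C1qc on chromosome 4 (136616466 to 136620376), Cd163 on chromosome 6 (124281606 to 124307560) and Mrc1 on chromosome 2 (14234151 to 14336926).

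Genes of resident and perivascular macrophages included the steepest falls. Of 16 genes, all tested, 14 were lower and 0 higher, with a median log2 difference of -2.94, and 14 were lower with the covariate. Cd163, the scavenger receptor for haemoglobin, had 684, 821, 778, 626 and 1345 normalized counts without PLX. With PLX it had 22.4, 14.7, 9.84, 9.95 and 9.86, which is 1.57% of the mean without PLX (log2 difference -5.91 ± 0.37 (SE), adjusted p = 2.59e-09).

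Mrc1, the mannose receptor CD206, had 3210, 3357, 4134, 4014 and 3711 without and 221, 204, 245, 123 and 253 with PLX, leaving 5.67% (log2 difference -4.17 ± 0.27 (SE), adjusted p = 3.65e-09). The groups did not overlap for either gene, and for Cd163 the lowest mouse on control food stood at 626 against 22.4 in the highest mouse with PLX. Cd209f, a lectin of the DC-SIGN family, was at 0 in 2 of the mice with PLX and at most 4.91 in the others, against 94.6 to 324 without PLX. Ms4a7, a membrane protein of macrophages, kept 14.5% and F13a1, a coagulation factor subunit made by resident macrophages, 13.01%. Lyve1, a hyaluronan receptor of perivascular macrophages and lymphatic endothelium, kept 19.97% (log2 difference -2.24 ± 0.32 (SE), adjusted p = 0.000107).

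Homeostatic microglia genes split. Of 11 tested genes 6 were lower and 0 higher (5 lower with the covariate). Gpr34, a lysophosphatidylserine receptor, had 265, 360, 384, 453 and 415 normalized counts without and 32.5, 30.9, 23.3, 14.2 and 19.5 with PLX (log2 difference -3.94 ± 0.23 (SE), adjusted p = 1.82e-09), and the purine receptor P2ry12 kept 11.5% (log2 difference -3.18 ± 0.27 (SE), adjusted p = 1.29e-07). Tmem119, a membrane protein that marks microglia in neural tissue, did not pass the test in choroid. It had 1331, 1436, 1485, 1822 and 1664 without and 1610, 1704, 1445, 1564 and 1715 with PLX (log2 difference 0.06 ± 0.13 (SE), adjusted p = 0.902). In the retinas of the same 10 mice, fitted separately, Tmem119 fell by 5.74 on the log2 scale (adjusted p = 5.45e-10).

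Most receptors by which phagocytes sense and take up material fell. Of 13 Fc and complement receptor genes 12 were lower, with and without the covariate, and the median log2 difference was -2.12. C5ar1, the receptor for the anaphylatoxin C5a, kept 17.3%, C3ar1, its counterpart for C3a, 22.7%, and Fcgr3, a low-affinity receptor for IgG, 24.9%. Of 17 Toll-like receptor and inflammasome genes 9 were lower with and without the covariate. Among the sensors of microbial nucleic acids and lipoproteins, Tlr13 kept 27.8%, Tlr7 17.6% and Tlr2 58.4%, and the co-receptor Cd14 kept 18.2%. Nlrp3 and Casp1, the sensor and the protease of an inflammasome, kept 34.8% and 29.02%.

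Of the complement components the C1q chains fell, and most others did not pass. Of 16 genes, 5 were lower with and without the covariate: the chains C1qa, C1qb and C1qc, the positive regulator Cfp (24.9% left) and C6, a part of the membrane attack complex. C6 was low throughout, with 6.09, 12.6, 7.19, 10.4 and 58.9 normalized counts without PLX and 0 in 4 of the mice with PLX (log2 difference -3.41 ± 0.70 (SE), adjusted p = 0.00497). No other component passed the test. C3, the central component, had 6489 ± 1677 against 5962 ± 2089 normalized counts (SD, n = 5 in each group; log2 difference -0.16 ± 0.24 (SE), adjusted p = 0.858).

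Antigen presentation genes fell in part. Of 12 MHC class II genes 8 were lower (6 with the covariate) and 0 higher, and the median log2 difference was -1.28 (-1.385 with the covariate). H2-Aa, an MHC class II chain, kept 38.8%, the chaperone subunit H2-DMa 35.7%, and Cd86, a co-stimulatory ligand for T cells, 18.4%. Of 12 dendritic cell genes 4 were lower, led by Wdfy4, which serves cross-presentation (log2 difference -1.89 ± 0.26 (SE), adjusted p = 4.55e-05), and 2 were lower with the covariate. The median of the dendritic cell list was -1.03 without and -1.04 with the covariate. Kmo, an enzyme of tryptophan breakdown, kept 32.9%, and Itgax, the integrin CD11c, 47.8%.

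Monocyte genes mostly did not pass the test. Of 12 genes, 2 were lower and 0 higher. Ccr2, the receptor that draws monocytes to CCL2, had 1386, 1774, 2243, 3434 and 1693 normalized counts without and 948, 778, 754, 578 and 560 with PLX, leaving 34.4% (log2 difference -1.49 ± 0.26 (SE), adjusted p = 0.000834). Spn, a sialoglycoprotein of leukocytes, kept 34.9%. Ly6c2, which marks classical monocytes, had 119.5, 76.97, 73.4, 208 and 138 without and 126, 213, 88.4, 52.5 and 128 with PLX, and the mice of both groups were mixed (log2 difference -0.06 ± 0.49 (SE), adjusted p = 0.984). A moderate change of this gene was not detectable at that spread.

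Markers of other leukocytes gave few calls. Of 9 tested neutrophil genes, 2 were lower: Csf3r, the G-CSF receptor that macrophages share (37.95% left), and the collagenase Mmp8 (29.9% left). Of 17 lymphocyte genes, 3 were lower: Ighm, the IgM heavy chain, from 688 ± 172 to 104 ± 17.4 normalized counts (SD, n = 5 in each group; log2 difference -2.69 ± 0.21 (SE), adjusted p = 6.03e-08), Cd4 (24.6% left), which mouse macrophages can also carry, and Cd79b (36.9% left). With the covariate Cd79b did not pass (log2 difference -1.04, adjusted p = 0.262). Cd3e, a part of the T cell receptor complex, did not pass (log2 difference -0.36 ± 0.49 (SE), adjusted p = 0.825). Of 13 mast cell genes only Hpgds, a prostaglandin D synthase, passed, and it fell (log2 difference -1.25 ± 0.12 (SE), adjusted p = 5.3e-07). The median log2 difference of the mast cell list lay on the other side, at 1.13 (1.45 with the covariate and -0.54 in control choroids). The mean log2 level of the list ranged from 4.11 to 5.27 without and from 5.49 to 6.32 with PLX. Tpsab1, a mast cell tryptase, had 3.76, 0, 4.73, 8.03 and 2.54 without and 164, 11.4, 80.2, 12.4 and 15.3 with PLX, which did not pass (log2 difference 3.07 ± 1.05 (SE), adjusted p = 0.118).

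Genes of lipid handling and of the disease-associated phagocyte state were lower in part. Of 22 genes, 15 were lower and 0 higher, with a median log2 difference of -0.82, and 13 were lower with the covariate. Trem2, a lipid-sensing receptor of phagocytes, kept 20.9%, the scavenger receptors Msr1 and Cd36 15.7% and 35.3%. Spp1, the secreted protein osteopontin, had 78290, 50608, 79396, 34546 and 33436 normalized counts without and 15873, 15984, 14034, 13504 and 18344 with PLX (log2 difference -1.74 ± 0.21 (SE), adjusted p = 9.45e-06). Apoe, the lipid carrier, which the choroid also expresses outside phagocytes, kept 59.1% of a high level, from 89491 ± 6536 to 52927 ± 5096 (SD, n = 5 in each group; log2 difference -0.76 ± 0.12 (SE), adjusted p = 0.000207). Gpnmb, a glycoprotein of pigmented cells and of phagocytes, did not pass (log2 difference -0.15 ± 0.19 (SE), adjusted p = 0.799). Hmox1, which breaks down haem, was the 1 gene of 17 in the hypoxia and stress list that passed, with 42.9% left (log2 difference -1.19 ± 0.21 (SE), adjusted p = 0.00133).

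Most chemokines and their receptors were lower, 1 was higher and 6 did not pass. Of 22 genes, 15 were lower and 1 higher (13 and 1 with the covariate), and the median log2 difference was -1.55. Ccl8 and Ccl4, ligands that attract monocytes and lymphocytes, kept 10.03% and 17.4%, and the receptor Ccr1 25.1%. Cx3cl1, which encodes fractalkine, the ligand of Cx3cr1, moved the other way. It had 1467, 1464, 1282, 1608 and 1402 normalized counts without and 1946, 2161, 2977, 1976 and 2718 with PLX, and every mouse with PLX stood above every mouse without (log2 difference 0.69 ± 0.15 (SE), adjusted p = 0.00763). With the covariate its log2 difference was 0.75 (adjusted p = 0.0364), and in control choroids it was 0.12 (adjusted p = 0.795).

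Transcription factors of the myeloid lineage fell in part. Of 14 factors, 7 were lower with and without the covariate and 0 higher. Spi1, which encodes PU.1, the factor that macrophage genes depend on, had 859.8, 766, 974, 1103 and 646 normalized counts without and 192, 362, 268, 147 and 216 with PLX (log2 difference -1.91 ± 0.26 (SE), adjusted p = 4.04e-05). Irf5, which drives inflammatory genes, kept 31.96%, Cebpa 50.3% and Maf 57.4%, whereas Mef2c, which muscle and neurons use too, did not pass (adjusted p = 0.915).

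The binding word of PU.1 was looked for in promoter windows from RefSeq (GRCm38.p6) that run from 250 bases before to 50 bases after a gene's start. The word GAGGAAGT, on either strand, was present in 57 of 394 windows (14.5%) of choroid-enriched genes that were lower with PLX, of which 335 of 460 had a window. It was present in 1052 of all 32851 windows (3.2%), in 7 of 186 windows (3.76%) of lowered retina-enriched genes and in 4 of 93 windows (4.3%) of raised genes. A word of photoreceptor promoters, TAATCC, was in 21 of 186 windows (11.3%) of lowered retina-enriched genes, in 28 of 394 (7.11%) of lowered choroid-enriched genes and in 2320 of all windows (7.06%). These shares describe letters in the windows and do not show binding. Choroid-enriched genes that were not lowered were not counted apart, so the shares do not separate the fall with PLX from enrichment in choroid. The 250 bases before the start are shown for 3 lowered genes that hold the PU.1 word, which stands in capitals and reads ACTTCCTC because it lies on the opposite strand, and for Cx3cr1, whose stretch holds neither word. They lie at chr4:136892915-136893164, minus strand (C1qc), chr5:90772185-90772434, plus strand (Pf4, a platelet and macrophage chemokine with 7.47% of its RNA left), chr1:171018676-171018925, plus strand (Fcgr4, an activating IgG receptor with 22.3% left) and chr9:120068297-120068546, minus strand (Cx3cr1), all read 5′ to 3′ along the gene.
C1qc: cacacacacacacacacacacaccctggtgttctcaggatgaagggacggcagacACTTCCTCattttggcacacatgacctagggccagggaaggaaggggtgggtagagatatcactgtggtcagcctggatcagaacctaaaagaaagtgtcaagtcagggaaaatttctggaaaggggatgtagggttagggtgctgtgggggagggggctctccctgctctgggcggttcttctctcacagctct
Pf4: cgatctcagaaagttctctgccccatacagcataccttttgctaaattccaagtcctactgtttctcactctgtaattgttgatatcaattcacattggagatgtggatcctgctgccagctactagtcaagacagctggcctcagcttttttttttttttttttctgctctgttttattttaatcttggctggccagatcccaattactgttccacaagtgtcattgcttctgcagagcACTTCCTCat
Fcgr4: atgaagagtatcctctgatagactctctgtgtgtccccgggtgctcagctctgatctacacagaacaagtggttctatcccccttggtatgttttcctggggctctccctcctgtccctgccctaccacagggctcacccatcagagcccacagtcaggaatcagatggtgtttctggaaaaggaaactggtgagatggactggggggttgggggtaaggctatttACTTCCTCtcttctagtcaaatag
Cx3cr1: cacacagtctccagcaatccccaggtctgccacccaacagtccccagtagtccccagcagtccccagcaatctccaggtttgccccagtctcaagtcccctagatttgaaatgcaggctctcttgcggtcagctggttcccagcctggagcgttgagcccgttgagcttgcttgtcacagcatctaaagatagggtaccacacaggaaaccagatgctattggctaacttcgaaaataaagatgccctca

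Neither ligand of CSF1R passed the test. Csf1 had 2636, 2793, 3263, 3147 and 2763 normalized counts without and 3042, 2851, 3291, 3276 and 2736 with PLX (log2 difference 0.06 ± 0.11 (SE), adjusted p = 0.880). Il34 had 599, 833, 831, 314 and 816 without and 699, 593, 872, 665 and 535 with PLX (log2 difference 0.06 ± 0.24 (SE), adjusted p = 0.960), with mouse 9 on control food the lowest of the 10. Besides Csf1r, the receptor chains Csf2ra and Csf3r and the receptor Flt3 were lower, so that 4 of 10 tested genes of this axis passed (3 with the covariate), all downwards.

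Most angiogenic and growth factors did not pass. Of 23 tested angiogenic and growth factor genes, 2 were lower and 1 higher, with and without the covariate. Igf1, the insulin-like growth factor, had 8436, 7145, 7912, 6503 and 7634 normalized counts without and 3837, 6177, 4149, 3603 and 3643 with PLX (log2 difference -0.84 ± 0.18 (SE), adjusted p = 0.00826). Osm, the cytokine oncostatin M, kept 24.5% (log2 difference -1.96 ± 0.41 (SE), adjusted p = 0.00628). Vegfa, the main angiogenic factor of the eye, had 5651, 5686, 5215, 3986 and 4613 without and 7727, 5420, 6449, 6405 and 6866 with PLX, and the groups overlapped (log2 difference 0.39 ± 0.12 (SE), adjusted p = 0.0931).

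Il6 and Fga, an inflammatory cytokine and a fibrinogen chain, were close to the detection limit. Il6 had 5.96, 3.905, 7.13, 3.24 and 3.55 normalized counts without and 12.2, 11.7, 13.8, 11.97 and 9.61 with PLX, and the groups did not overlap (exact permutation test, two-sided, p = 0.00794). Over all genes it did not pass (log2 difference 1.199 ± 0.55 (SE), adjusted p = 0.295). Fga was at 0 in 4 of 5 mice of each group and at most 3.34 normalized counts, about the level of 3 reads, in the others, so it was not tested.

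Genes of the vascular, pigment and stromal cells of the choroid gave few calls. Of 20 genes of TGF-β signalling only Tgfbi, a matrix protein that TGF-β induces, was lower (62.9% left, log2 difference -0.67 ± 0.15 (SE), adjusted p = 0.00929). Of 18 pan-endothelial genes only Tek, the receptor for angiopoietins, passed, and it was higher, from 2098 ± 153 to 2551 ± 119 normalized counts (SD, n = 5 in each group; log2 difference 0.28 ± 0.08 (SE), adjusted p = 0.0454). All 18 had a log2 difference above 0, from 0.07 to 0.43 with a median of 0.25 (0.20 with the covariate), beside a median of 0.09 over all choroid-enriched genes. In control choroids the median of this list was 0.32, and 3 of its genes were called higher. Their summed level ranged from 48468 to 53861 normalized counts without and from 56174 to 62242 with PLX, so the groups did not overlap. Of 12 pericyte and smooth muscle genes only Rgs5, a pericyte regulator of G protein signalling, passed, and it was higher (log2 difference 0.42 ± 0.11 (SE), adjusted p = 0.0356). The pericyte list had a median of 0.19 (0.27 with the covariate), and its summed level ranged from 54717 to 61511 without and from 67295 to 80615 with PLX. In control choroids its median was also 0.19, with 3 genes called higher. Neither Tek nor Rgs5 passed with the covariate (log2 differences 0.25 and 0.46, adjusted p = 0.356 and 0.148), and of the 20 fits that each left out 1 choroid, 13 lost the call of Tek and 8 that of Rgs5. None of 12 melanocyte genes and none of 14 pigment epithelium genes passed by limma, where 3.5% and 0.559% of all tested genes were called lower and higher, and the medians of these lists were 0.21 and 0.27. Of 22 fibroblast and matrix genes, the proteoglycan Dcn was higher (log2 difference 0.52 ± 0.14 (SE), adjusted p = 0.0348; adjusted p = 0.309 with the covariate) and the macrophage elastase Mmp12 lower. Mmp12 had 1704, 3336, 2369, 1825 and 1690 without and 596, 682, 546, 544 and 461 with PLX (log2 difference -1.91 ± 0.23 (SE), adjusted p = 1.15e-05). Of 20 cell cycle genes only Aurkb, a mitotic kinase, passed, and it was lower (log2 difference -1.37 ± 0.25 (SE), adjusted p = 0.00167). The median of the cell cycle list was -0.43. Of 24 interferon-stimulated genes only the antiviral synthetases Oas2 and Oas1a were lower (35.9% and 42.05% left), and for both the mice of the groups overlapped.

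The remaining lists held few called genes or none, where 3.5% of all tested genes were called lower and 0.559% higher. For lists this short, 0 calls is near those shares. Of 12 Schwann cell genes Prx, a myelin protein, was higher (log2 difference 0.48 ± 0.13 (SE), adjusted p = 0.0484), and of 15 tested clock genes Nr1d2, a nuclear receptor of the clock, was higher (log2 difference 0.47 ± 0.13 (SE), adjusted p = 0.0386). Neither passed with the covariate. The median of the Schwann cell list was 0.26 without and 0.18 with it, and that of the clock list 0.25 and 0.19. Of 14 fenestrated and tip cell genes only Cxcr4, a chemokine receptor that leukocytes share, was lower (63.2% left; log2 difference -0.69, and -0.66 with adjusted p = 0.262 with the covariate). Of 15 tested adhesion and coagulation genes Plau, the urokinase, and F13a1 were lower. Of 18 Müller glia and astrocyte genes Apoe and the potassium channel gene Kcnj10 were lower (55.6% of Kcnj10 left), and with the covariate Kcnj10 did not pass (log2 difference -0.86 without and -0.81 with it, adjusted p = 0.144). None of 16 immediate early genes, 12 muscle genes, 12 lens crystallins or 8 tested erythroid genes passed by limma. The erythroid list, which holds globins, had a median log2 difference of 1.53, and with the covariate 2 of its genes were higher. Its summed level ranged from 1867 to 2715 normalized counts without PLX and from 2815 to 7989 with PLX.

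**Figure D2:**
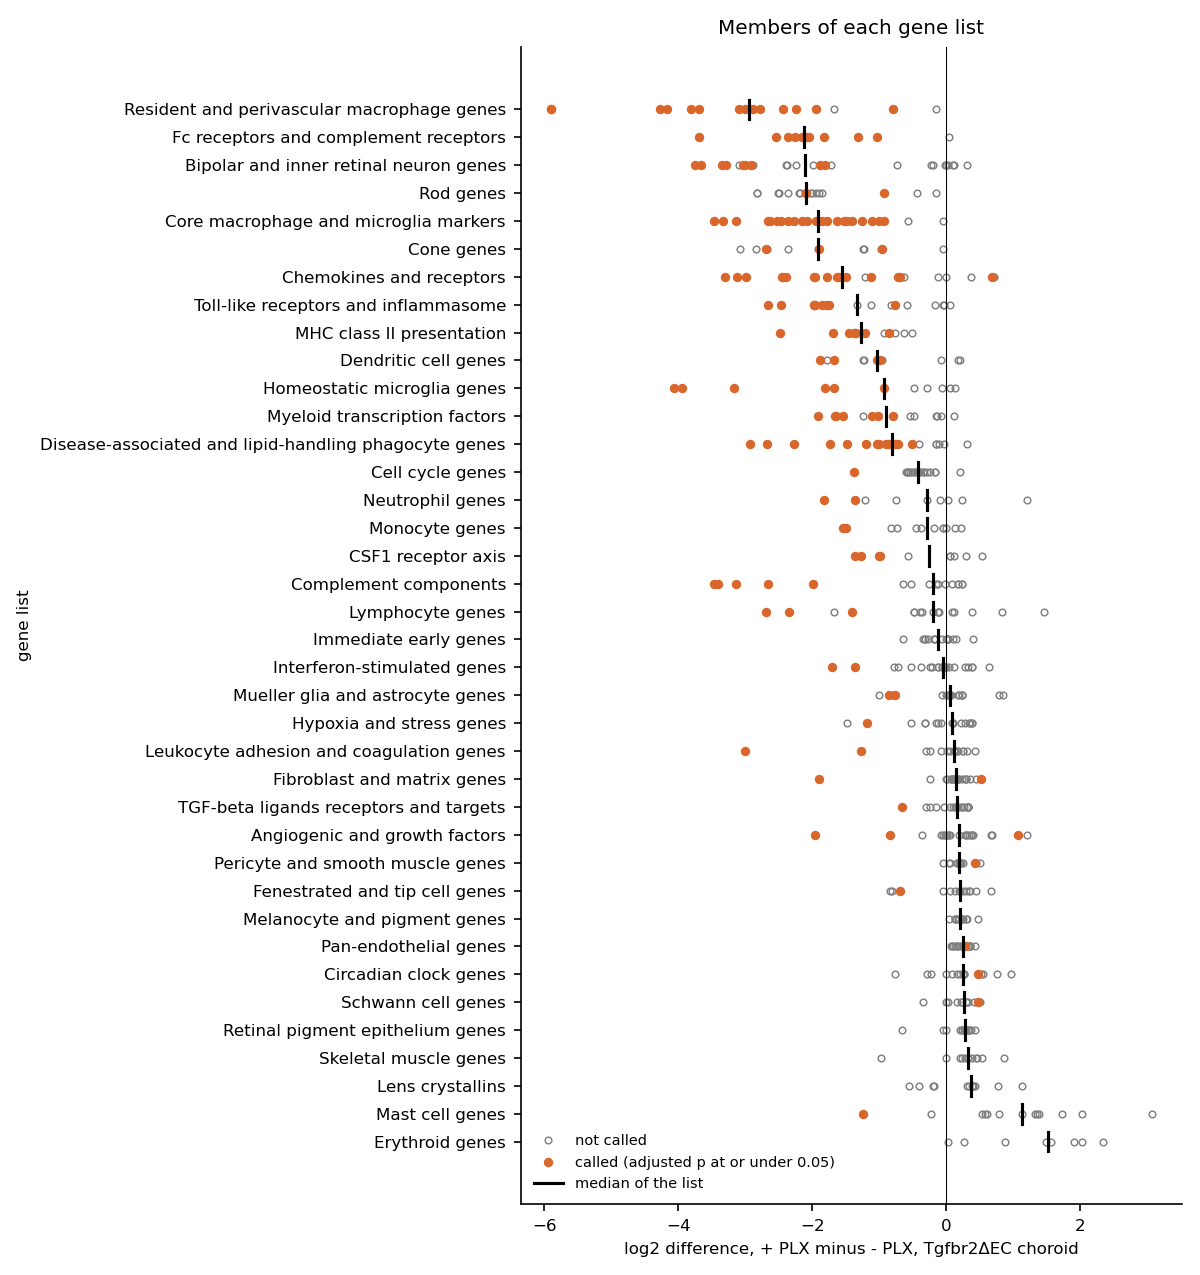
Log2 difference between Tgfbr2ΔEC choroids with and without PLX (x axis) for the tested members of 38 gene lists (y axis), sorted by the median of each list. Filled points passed an adjusted p of 0.05, open points did not, and vertical bars give the median. Lists of macrophage genes and of retinal neurons lie to the left, and the medians of the pan-endothelial, pericyte, melanocyte, pigment epithelium and fibroblast lists lie between 0.15 and 0.27.

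Fgf18, on chromosome 11 (33067014 to 33097828, GRCm39), had the lowest p of the raised genes. It encodes a fibroblast growth factor, and its level in the mice without PLX was 98.5, 94.7, 109.6, 105 and 101 normalized counts. With PLX it was 191, 213, 230.2, 194 and 250.2, so that it was 2.12-fold higher and the groups did not overlap (log2 difference 1.07 ± 0.15 (SE), adjusted p = 4.89e-05). It passed with the covariate (log2 difference 1.05, adjusted p = 0.00173) and in control choroids (log2 difference 0.74, adjusted p = 0.00321).

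Several other raised genes kept their call with the covariate. Cpeb1, which regulates translation by binding mRNA tails, was 1.65-fold higher (log2 difference 0.73 ± 0.13 (SE), adjusted p = 0.00118). Lmcd1, a transcriptional co-regulator of muscle cells, was 1.695-fold higher (log2 difference 0.77 ± 0.16 (SE), adjusted p = 0.00585). Col10a1, a collagen of hypertrophic cartilage, had 1865, 1378, 3147, 2260 and 1428 normalized counts without and 2959, 3683, 3998, 3646 and 4182 with PLX, and mouse 8 on control food overlapped the group with PLX (log2 difference 0.93 ± 0.19 (SE), adjusted p = 0.00506). Garin1a, a gene of the testis-expressed Garin family, and the predicted gene Gm48956 were 2.64-fold and 2.35-fold higher (adjusted p = 0.00417 and 0.00361, and 0.0381 and 0.0360 with the covariate). Cpeb1, Lmcd1, Col10a1 and Pdzrn3, a ubiquitin ligase, passed with the covariate (adjusted p = 0.0285, 0.0389, 0.00498 and 0.0110).

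The mechanosensitive channel gene Piezo2, the repulsive guidance cue Sema3a, the adaptor gene Appl2, the Hippo pathway co-activator gene Wwtr1 and Cped1 passed without the covariate and missed the threshold with it (adjusted p = 0.0532, 0.106, 0.0544, 0.105 and 0.177). Their log2 differences were 0.51, 0.69, 0.41, 0.34 and 0.47 without the covariate and 0.49, 0.61, 0.41, 0.32 and 0.40 with it, and the standard error of each was larger with the covariate. Wif1, a secreted inhibitor of Wnt ligands, had 58.2, 77.2, 70.6, 87.6 and 65.2 without and 171, 119.6, 208, 233 and 225 with PLX and passed in both fits (log2 difference 1.38 ± 0.31 (SE), adjusted p = 0.0121, adjusted p = 0.0117 with the covariate). The predicted gene Gm48799 was at 0 in all 5 mice without PLX and had 44.2, 50.9, 46.8, 92.98 and 87.5 normalized counts with PLX, at least 20.8-fold higher against a floor of 3 reads per library. It missed the threshold with the covariate (log2 difference 5.96 ± 1.102 (SE) without and 5.26 ± 1.375 (SE) with it, adjusted p = 0.0505 with it). In control choroids it ranged from 0 to 106 normalized counts on control food and from 0 to 108 with PLX, so mice at 0 occurred on both diets (log2 difference -0.48, adjusted p = 0.907).

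**Figure D3:**
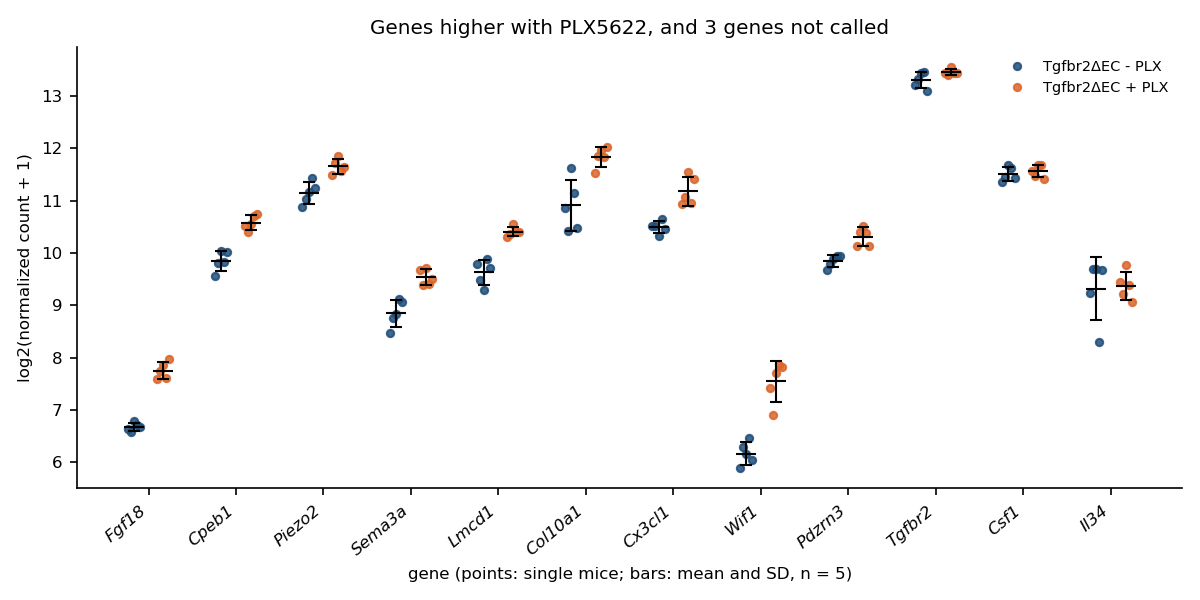
Normalized counts of 9 raised genes and of Tgfbr2, Csf1 and Il34 in the choroid of each Tgfbr2ΔEC mouse, on the y axis as log2(normalized count + 1), without PLX (blue) and with PLX (orange). Points are single mice, and black bars give the mean and SD of 5 mice. The groups are separate for 8 of the 9 raised genes, and they overlap for Col10a1 and the 3 genes on the right. The raised genes were called in these same mice, and 94 of all 132 raised genes had groups without overlap.

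Each tested gene was placed by its enrichment in choroid over retina, taken from the 5 control mice on control food, none of which is in the comparison. A gene was called choroid-enriched or retina-enriched where the tissues differed by a log2 of 2 or more. Of 4243 choroid-enriched genes, 460 were lower (10.8%) and 80 higher (1.89%), and with the covariate 395 were lower and 10 higher. The 80 raised genes became 21, 44, 47, 50, 52, 45, 35 and 32 when mice 6, 8, 9, 16, 17, 18, 19 and 20 were left out in turn. Of 2647 retina-enriched genes, 192 were lower (7.25%) and 0 higher, with a median log2 difference of -0.59 and 84.1% of the genes below 0. With the covariate 4 of these genes were lower and 1 higher, and the median was -0.09. Leaving out 1 mouse moved the lowered retina-enriched genes to 55 (without mouse 6) or 57 (without mouse 9), and to 537 without mouse 15 of the control choroids. The remaining 16729 genes gave 174 lower and 52 higher.

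**Figure D4:**
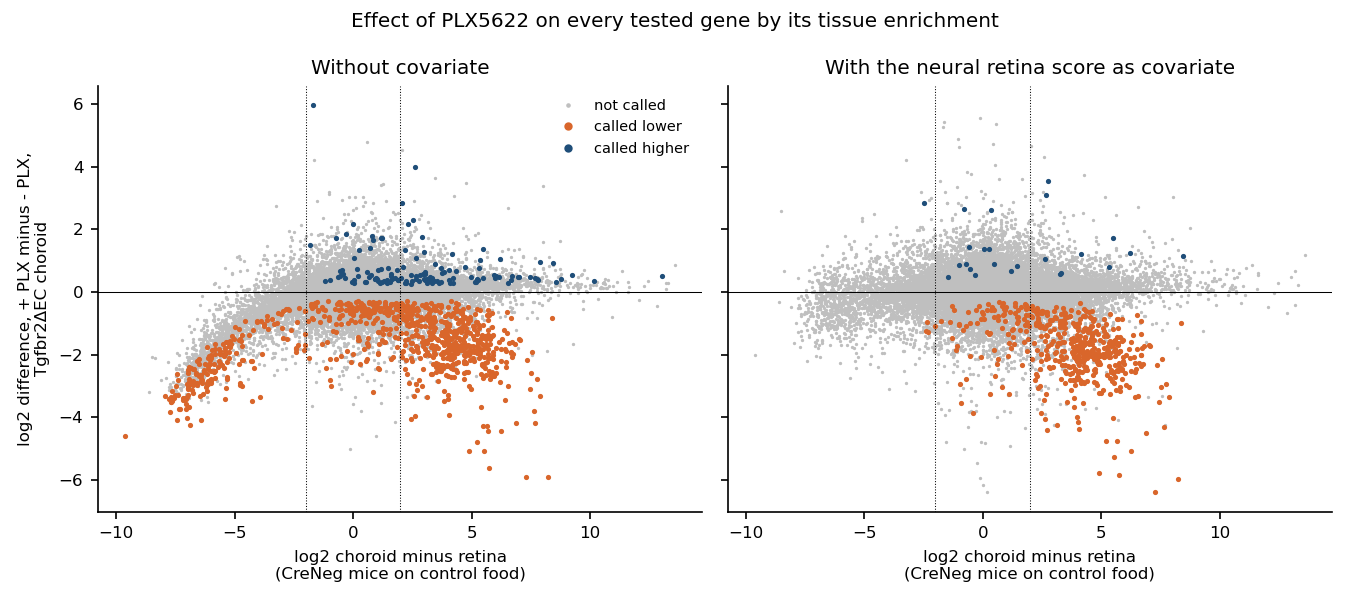
Log2 difference between Tgfbr2ΔEC choroids with and without PLX (y axis) for the 23619 tested genes against their enrichment in choroid over retina (x axis, log2, control mice on control food), without (left) and with (right) the covariate. Dotted lines mark the enrichment threshold of 2, orange points are called lower and blue points higher. On the left, genes far to the retina side lie below 0, and on the right they lie around 0, while the cloud of lowered choroid-enriched genes is present in both panels.

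Photoreceptor and inner retinal genes had medians well below 0, and some of them passed the test. Of 17 rod genes 2 were lower, of 12 cone genes 3, and of 26 tested bipolar and inner neuron genes 9, with median log2 differences of -2.099, -1.91 and -2.12. With the covariate 0, 1 and 0 were lower, and the medians were 0.27, -0.38 and -0.28. The 1 gene called with the covariate was Gngt2, a G protein subunit of cones that macrophages also express (log2 difference -0.96 ± 0.18 (SE), adjusted p = 0.00189, adjusted p = 0.0251 with the covariate). In the retinas themselves, none of these 3 lists had a gene called lower with PLX by limma, where 0.512% of all genes tested in retina were called lower, so that 0 is near the background. Their median log2 differences there were 0.02, 0.03 and 0.07.

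The 5 retina-enriched genes with the lowest p included immune genes. Marchf1, a ubiquitin ligase that removes MHC class II from the surface, had 538, 488, 549, 715 and 388 normalized counts without and 206, 172, 173, 113 and 108 with PLX (log2 difference -1.81 ± 0.27 (SE), adjusted p = 0.000143), and Samsn1, an adaptor of leukocytes, kept 39.5%. Both passed with the covariate (adjusted p = 0.00955 and 0.0209), as did the unnamed transcript AI504432 (adjusted p = 0.0333), and retinal RNA amounted to between 10.2% and 47.4% of Marchf1. Kcnab2, a potassium channel subunit, and Cds1, an enzyme of phospholipid synthesis, did not pass with it (log2 differences -2.17 and -1.73 without and -1.2 and -0.93 with it, adjusted p = 0.0564 and 0.0545). For Kcnab2 retinal RNA amounted to between 44.1% and 97.7%. The part of retinal RNA in single calls was not tested further.

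**Figure D5:**
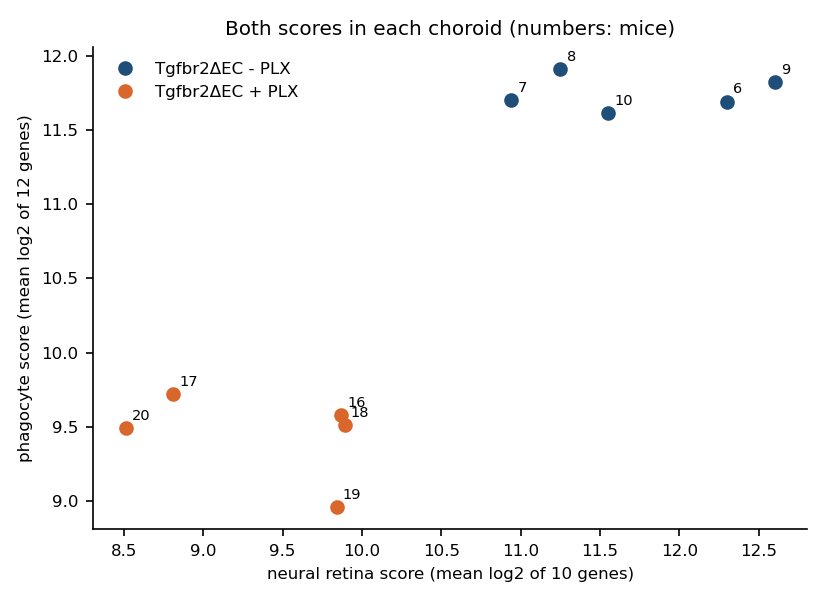
Phagocyte score (y axis, mean log2 of 12 macrophage genes) against neural retina score (x axis, mean log2 of 10 retinal genes) in the choroid of each Tgfbr2ΔEC mouse, without PLX (blue) and with PLX (orange); numbers are mice. The groups are separate on both axes, with mice 6 and 9 farthest to the right.

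The same diets were compared in control choroids, from other mice (5 in each group). Of 23619 genes, 743 were lower with PLX in control choroids (3.15%) and 142 higher (0.601%). Of the lowered genes, 520 were called in both genotypes, which is 62.95% of those in Tgfbr2ΔEC choroids and 69.99% of those in control choroids. Of the raised genes 14 were called in both, which is 10.6% and 9.86%. Cx3cr1 kept 9.99% in Tgfbr2ΔEC and 8.27% in control choroids, Cd163 1.57% and 2.64%, and Csf1r 50.02% and 48.7%.

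The difference of the diet effects between genotypes was called for 0 of 23619 genes (0%) by limma, with a lowest adjusted p of 0.332 and 1552 genes at an unadjusted p under 0.05, of which 832 were retina-enriched and 166 choroid-enriched. For Cx3cr1 the difference was 0.28 ± 0.24 (SE, log2), for C1qc -0.22 ± 0.30, for Csf1r 0.05 ± 0.14 and for Cx3cl1 0.57 ± 0.21. Genes raised in 1 genotype alone are thus not shown to differ between genotypes. The control choroid of mouse 15, fed PLX, carried summed neural genes at 9.80% of their retinal level, above the 0.317% to 1.37% of the other mice of its group.

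In the retinas of the same 10 mice Cx3cr1 and C1qc were at or near 0 with PLX. Of 23243 genes tested there, 119 were lower (0.512%) and 1 was higher (0.0043%), and 107 of the 119 were also lower in choroid. Cx3cr1 had 242, 229, 236, 195 and 143 normalized counts in retinas without PLX and 0, 4.19, 0, 0 and 0 with PLX. C1qc had 338, 393, 277, 184 and 173 without and 0, 0, 0, 2.05 and 0 with PLX. Csf1r, in contrast, had 748, 625, 456, 486 and 368 without and 78.1, 78.5, 51.6, 69 and 51.9 with PLX, so that 12.3% of its mean was left in retina and 50.02% in choroid. Mrc1 and Cd163 were low in retina, with at most 39.7 and 2.84 normalized counts, and did not pass there (adjusted p = 0.724 and 1). The difference between the tissues was not tested.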

How the data were processed

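Polyadenylated RNA from central choroid and retina of 20 mice was sequenced. The deposited values were used as signal: normalized counts that the authors made by quantifying reads with Salmon 1.10.1 against mouse transcripts, summarizing them per gene and dividing by DESeq2 1.36.0 size factors, after quality control with FastQC 0.11.5 (build GRCm39 per the labels' processing notes). The study's methods describe separate analysis of the tissues after quantification. In the deposited table, median-of-ratios factors recomputed over all 40 libraries were 1.008 in each, against 0.983 to 1.029 over the choroids alone and 0.992 to 1.036 over the retinas alone, so this table was scaled over both tissues together. They do not come out as whole reads for most genes, so no count test was run, and the reads per library are an estimate from the step that 1 read takes among low values. Of 54307 genes, 53700 matched a gene name and 607 did not. No column was left without a sample.

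Groups were taken from the sample titles. Values were analysed as log2(normalized count + 1) for 23619 genes, those averaging 1 or more across the 20 choroids, so fold changes of low genes are understated. All 4 choroid groups entered 1 fit (limma 3.58.1, R 4.3.3, variances moderated along a trend), and calls required a Benjamini-Hochberg adjusted p at or under 0.05. The retinas were fitted apart in the same way (23243 genes). The authors' own model held sex and a neuronal percentage, and here a neural retina score and a sex score entered as alternatives. Single values were compared with exact two-sided permutation tests, for which 0.00794 is the smallest p with 5 mice against 5. Retinal RNA in a choroid was scaled by the summed 10 neural genes of the same mouse's retina. The floor of detection was set at 3 reads, or 2.77 to 3.35 normalized counts, and covers counting error only. Tables and figures were made with Python 3.11.15, pandas 2.3.3, numpy 2.4.6 and matplotlib 3.10.9. On simulated data over 23619 genes for this comparison, 83 of 100 genes changed 2-fold and 98 of 100 changed 4-fold were recovered, and 6 unchanged genes were called. The simulation gave every gene the same spread beyond counting error and changed only genes averaging 10 or more. It held no difference in retinal RNA or sex between groups. Its shares check the procedure and are not the power or error rate of the real comparison.

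The comparison, its marker genes and the gene lists were chosen with earlier results of these data known, so no list is independent evidence of its direction. Named in the text are 8 fixed genes, the 10 genes of lowest p in each direction, the 8 choroid-enriched genes of lowest p in each direction, the 5 lowered retina-enriched genes of lowest p, and members of each list. Wif1, Gngt2, Mrc1 in retina, Mertk, Csf2rb, Vegfa, Tmem119, Ly6c2 and other members named beyond the 4 of lowest p of their list were chosen after their values were seen. Alternatives covered the pseudocount, the filter, the scaling, robust variance, covariates, the enrichment threshold, the samples in the fit and each mouse left out.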

Additional observations from a re-analysis of the deposited data

Results flagged for a closer look

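Within a group of 5 mice, a gene was marked where 1 mouse lay so far from its nearest neighbour that the gap took more than 0.71 of the whole range, both taken on the log2(normalized count + 1) scale. Of 234 groups examined over the genes named, 14 were marked, where chance gives about 1 in 20, or 11.7.

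In mice fed PLX, mouse 19 was low for C1qc (gap 0.73 of the range) and C3ar1 (0.721), and mouse 18 was low for Maf (0.754). Mouse 18 was high for Cd4 (0.813) and for C6, where it was the 1 mouse above 0 (1.0). Mouse 17 was high for Igf1 (0.738), Oas1a (0.755) and Tgfbi (0.796), and mouse 16 for Fga (1.0), where the other mice were at 0.

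In mice on control food, mouse 10 was high for Cd209f (0.775) and Lyve1 (0.858), mouse 9 was high for Hpgds (0.716), mouse 6 was low for Cped1 (0.805), and mouse 7 was high for Fga (1.0), again against 4 mice at 0. None of these genes, apart from Fga and Oas1a, had overlapping groups.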

How the results depend on the processing

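No paired analysis was possible because every mouse carries its own number and the groups compared share none. Another pseudocount, a mean of at least 10, robust variance, either rescaling and the sex covariate alone left each count of calls within 1.5 times its value. With every gene above 0 tested, 50 choroid-enriched genes were higher. In the 10 choroids alone 498 retina-enriched genes were lower and 1 was higher. With the neural retina score as covariate 490 genes were lower and 24 higher, among them 10 choroid-enriched higher, 4 retina-enriched lower and 1 retina-enriched higher. With both covariates these were 425, 15, 7, 2 and 0. With an enrichment threshold of 1, 3 retina-enriched genes were higher.

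Leaving out each of the 20 mice gave 576 to 1239 lowered genes and 49 to 174 raised ones. Raised genes numbered 49 without mouse 6, 76 without mouse 8, 76 without mouse 9, 79 without mouse 18, 68 without mouse 19 and 59 without mouse 20. Choroid-enriched genes numbered 394 to 493 lower and 21 to 95 higher. Retina-enriched genes numbered 55 to 537 lower (55 without mouse 6, 57 without mouse 9, 101, 102, 86 and 81 without mice 10, 16, 17 and 20, and 537 without mouse 15) and 0 to 1 higher. The difference between genotypes gave 0 calls throughout. The cause of these shifts was not tested.

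Of the named genes, 4 uncalled ones turned sign. Tmem119 was -0.005 with the neural covariate. Il34 was -0.053 with the sex covariate and between -0.20 (without mouse 9) and 0.150 (without mouse 7) when a mouse was left out. Ly6c2 was 0.099 with the sex covariate and between -0.292 (without mouse 17) and 0.208 (without mouse 19). C3 was between -0.327 (without mouse 18) and 0.016 (without mouse 17).

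Reads per library are only estimated, so the precision of low genes such as Il6 and C6 rests on the spread between mice.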
